A study of Homo sapiens with 3 samples.

Results

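The genes described here encode the proteins of the cytosolic ribosome. They were taken as all probe sets that name 1 gene only, with a symbol of the RPL or RPS series or RPLP0, RPLP1, RPLP2 or RPSA, and without S6 kinase genes, pseudogenes and mitochondrial ribosomal proteins. The rule used no measured value. It gave 96 of 22277 probe sets, which belong to 58 of 11963 genes named by such probe sets, 36 of the large and 22 of the small subunit. RPLP0 and RPSA were named by no probe set in the annotation used. The cells were RH30, an established line of alveolar rhabdomyosarcoma, a tumour of the skeletal muscle lineage. They were treated for 12 hours with 10 µM of an anti-MYCN PNA (peptide nucleic acid, a synthetic strand whose bases hang on an amide chain, here directed at the MYCN gene), were treated for 12 hours with 10 µM of a mutated PNA described as inactive, or were left untreated. Total RNA of each condition went on 1 Affymetrix array, so values carry no replicate error, differences are untested, and the number of arrays limits the precision.

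Each ribosome has a large subunit, which forms peptide bonds, and a small subunit, which reads the messenger RNA, and each ribosomal protein is needed once or in a few copies per particle. Growing cells make these proteins in matched amounts, and their transcripts are among the most abundant in a cell. MYC-family factors are known to raise ribosome production. Most ribosomal protein transcripts begin with a C followed by an unbroken run of C and T, the terminal oligopyrimidine tract, through which the growth kinase mTOR controls their translation.

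That tract is the sequence feature the members share, and it can be read at the annotated start sites. RefSeq promoters of GRCh38.p14 held 50 of the 58 genes. In 34 of the 50, or 68.0%, at least 1 start was a C followed by at least 4 bases that are all C or T, against 7.50% of 5639 other genes compared on the arrays. Counted by start, the shares were 58.6% and 5.09%. Among 42 mitochondrial ribosomal protein genes 3 had such a start. The windows below hold 15 bases before the start and 15 bases from it, with the tract in capitals. RPS19, RPS18 and RPL41 are among the 4 members furthest above both controls, RPS25 and RPL35A are bright members that differed least, and RPS27 stands beside its paralogue RPS27L. The window of RPL32, the member furthest above both controls, is not shown and has no tract. RPL3, RPS15, RPL19 and RPS4X, also above both controls, have none either, so the windows shown do not tie the tract to the difference. RPL26L1 is the paralogue of RPL26. Each window covers the last bases of the promoter and the first transcribed bases of the first exon.
RPS19: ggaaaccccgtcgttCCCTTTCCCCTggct
RPS18: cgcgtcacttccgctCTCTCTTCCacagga
RPL41: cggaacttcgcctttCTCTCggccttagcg
RPS25: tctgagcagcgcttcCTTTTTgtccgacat
RPL35A: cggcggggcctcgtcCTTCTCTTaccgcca
RPS27: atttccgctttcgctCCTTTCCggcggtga
RPS27L: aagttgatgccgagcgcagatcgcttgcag
RPL26L1: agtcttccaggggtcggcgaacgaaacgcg
On the plus strand lie the windows of RPS19 (chr19:41860240-41860269), RPS18 (chr6:33272060-33272089), RPL41 (chr12:56116618-56116647), RPL35A (chr3:197950175-197950204), RPS27 (chr1:153990747-153990776) and RPL26L1 (chr5:172958714-172958743). On the minus strand lie those of RPS25 (chr11:119018329-119018358) and RPS27L (chr15:63157463-63157492). RPS27L and RPL26L1 show no tract at these starts. The MYC binding motif CACGTG, which reads the same on both strands, stood in the 250 bases before a start of 2 of the 50 genes, RPL19 and RPS28, or 4.0%, against 12.3% of the other genes. TATAAA, searched on both strands, stood before 4 of the 50, or 8.0%, against 7.86%. These counts describe letters in the windows only.

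Some facts of the whole series bear on every value below. The array called untreated has a title and a treatment text that say so and a source name that says mutated PNA, so any direction between the controls rests on its label. Nothing states that the cultures were independent. MYCN, the targeted gene, read 2202 in anti-MYCN PNA, 2804 in mutated PNA and 3313 in untreated cells by its brightest probe set. All 24 probe sets of the bacterial poly-A spikes were lower with anti-MYCN PNA than on both control arrays, with a median ratio of 0.382 to mutated PNA and 0.410 to untreated. For 18S ribosomal RNA the 3 control probe sets gave 29.2 to 135 with anti-MYCN PNA, against 137 to 293 with mutated PNA and 106 to 259 in untreated cells. Their part in the results was not tested. All 8 of the muscle and rhabdomyosarcoma markers passed the signal filter, such as MYOD1 at 7834, 6266 and 6715 on the anti-MYCN PNA, mutated PNA and untreated arrays. Their summed signal was 19828.5, 15949.8 and 16853.6 in that order. None of 3 leukocyte, 3 endothelial and 3 fibroblast markers passed it, and 1 of 4 epithelial ones did, the keratin gene KRT18.

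Ribosomal protein signals were higher in anti-MYCN PNA cells than on either control for 50 of 56 genes, by 1.33-fold in the median gene, with the arrays scaled to a common trimmed mean. The direction turned with another scaling: after quantile normalization 17 were above both controls and 29 below, with a median of −0.034, and by rank within each array 17 and 28. All 22 other genes with a mean signal of at least 20000 were above both controls as well, but that mean includes the anti-MYCN PNA array. Values are MAS5 signal intensities, linear and scaled by 1 factor per array, and differences are on the log2 scale after a floor of 23.4. Each gene is represented by its brightest probe set, and a gene was kept when its mean signal was at least 117. Of the 58 genes, 56 passed, 34 of the large and 22 of the small subunit. RPL3L, the muscle form of RPL3, at 16.3, 9.3 and 3.1, and RPL10L, the testis form of RPL10, at 94.3, 84.5 and 90.0 on the anti-MYCN PNA, mutated PNA and untreated arrays, did not. Of the 56, 50 were above both controls, 3 below both and 3 between them, where 47.9% of all 6745 genes compared were above both and 37.6% below both. Higher than with mutated PNA were 50, where 55.1% of all genes were, and higher than in untreated cells 53, where 55.2% were. The median log2 difference of the 56 genes was 0.39 against mutated PNA and 0.39 against untreated, a fold of 1.31 each time, and it was 0.41 against the mean of the controls, where the median over all genes was 0.064. These comparisons share the anti-MYCN PNA array. Between mutated PNA and untreated cells the median was 0.018, with 40 of 56 higher in mutated PNA cells, where 50.2% of all genes were. In bulk RNA scaled to a common mean, more of a transcript per cell, other cells in the culture and less of the other transcripts cannot be told apart.

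The differences were small in most genes, with quartiles close together. To the mean of the controls they ran from −1.43 for RPLP2 to 0.76 for RPL32. At least 1.5-fold above both controls were 4 of the 56 genes, where 8.27% of all genes were, and 0 were 2-fold above both, where 1.16% of all genes were. At least 1.5-fold below both was 1 gene, RPLP2, against 7.37% of all genes, and it was also 2-fold below both, against 1.26%. By at least 25% 33 genes were above both controls, against 22.5% of all genes. The quartiles of the log2 difference to the mean of the controls over the 56 genes were 0.28 and 0.49. In 50 genes the smaller of both differences was larger than the difference between the controls. The share of all genes for which that held is not given here, so the count is no trait of the members. For the 49 genes with a mean signal of at least 10000 the controls differed by −0.058 to 0.17.

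**Figure D1:**
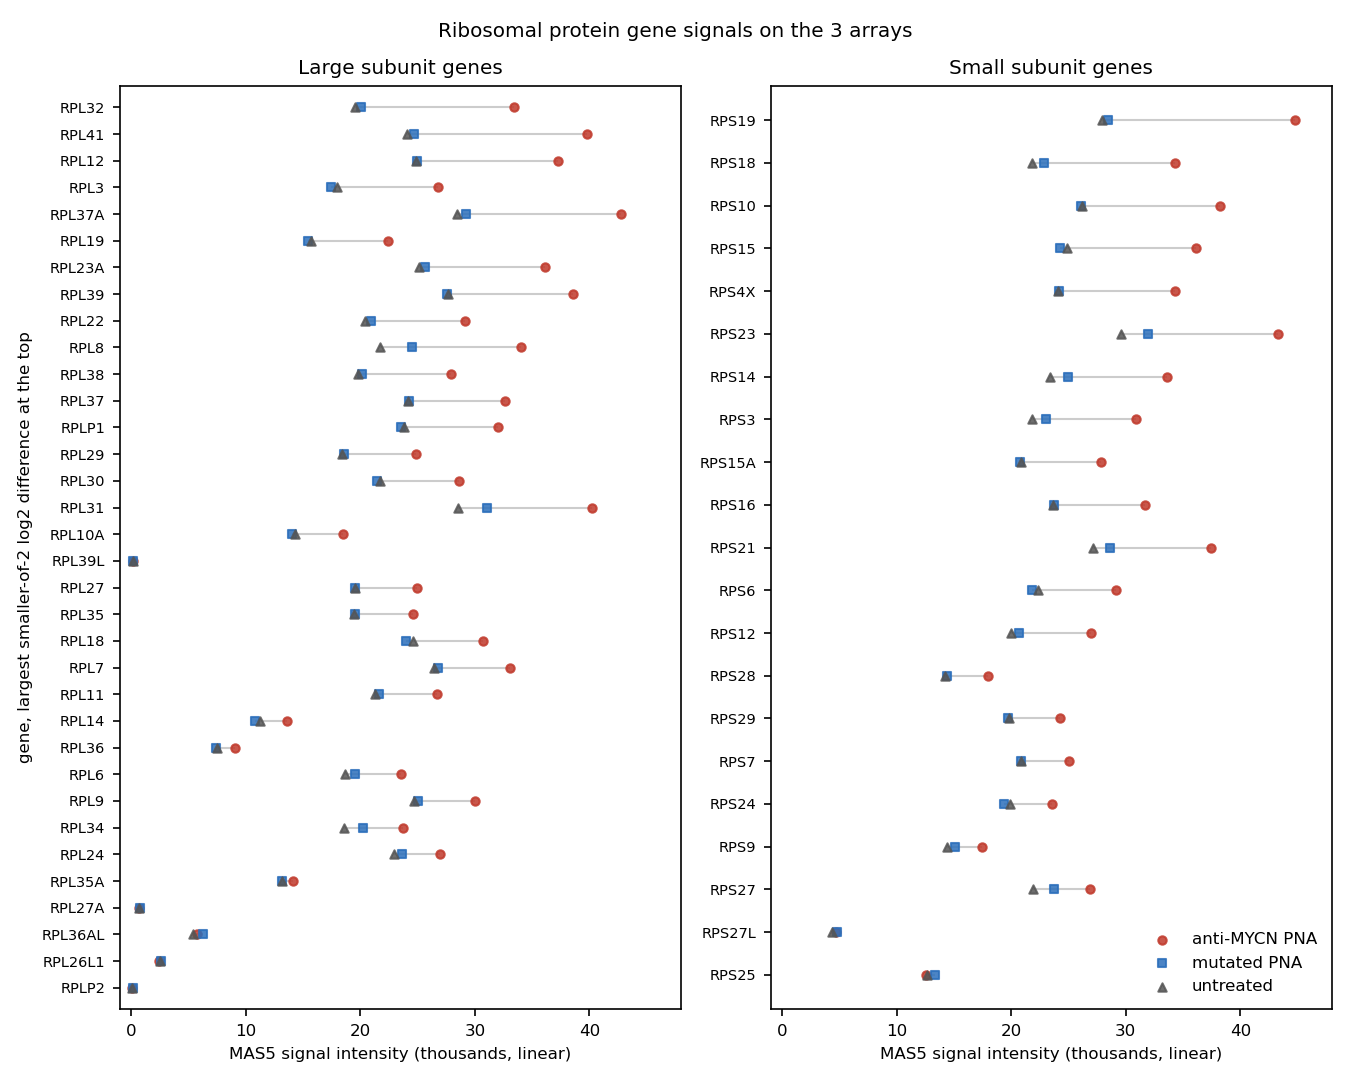
MAS5 signal intensity (linear axis) of each ribosomal protein gene on the anti-MYCN PNA, mutated PNA and untreated arrays, 1 point per array, with the genes of each subunit ordered by the smaller of the log2 differences to the controls. RPS4Y1 is not drawn. The anti-MYCN PNA points lie to the right of both controls in most genes, as for RPL32 at 33455 against 20028 and 19550.

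The 4 genes past 1.5-fold were RPL32, RPL41, RPS19 and RPS18. RPL32, a large-subunit protein, read 33455 in anti-MYCN PNA cells, against 20028 in mutated PNA and 19550 in untreated cells, log2 differences of 0.74 and 0.78. RPL41, the smallest ribosomal protein, read 39794, against 24714 and 24046 in the same order, with differences of 0.69 and 0.73. RPS19, which is needed to mature the 3′ end of 18S ribosomal RNA and is the gene most often mutated in Diamond-Blackfan anaemia, read 44735, against 28445 and 27931. RPS18, which contacts the tRNA in the head of the small subunit, read 34317, against 22826 and 21850. On these 4 the control values lay close together, with mutated PNA the higher by 0.026 to 0.063. RPL12, at the base of the stalk that recruits elongation factors, lay just under the threshold at 0.576 above the nearer control, and RPL3, near the peptidyl transferase centre, at 0.575. RPL37A, of the large subunit, at 0.55, and RPS10, of the small subunit, at 0.54, completed the 8 furthest above both controls. The ranking uses the brightest probe set. RPL37A turned to −0.30 with the median over its probe sets and to −0.67 without _x_at and _s_at probe sets, and RPS10 has 1 dim probe set below both controls.

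The members that were not above both controls were of 3 kinds. RPS25, a small-subunit protein needed for initiation at some viral entry sites, was the single bright one, with 12530.2 in anti-MYCN PNA, 13375 in mutated PNA and 12655 in untreated cells. RPL26L1, RPL36AL and RPS27L, each a second gene beside RPL26, RPL36A and RPS27, read 2469, 5792 and 4752 with anti-MYCN PNA, against 2588, 6286 and 4801 with mutated PNA and 2520.4, 5434 and 4344 untreated. RPL26L1 was thus below both controls by 0.030, and RPL36AL and RPS27L lay between them. RPLP2, an acidic stalk protein, and RPL27A were each represented by a dim probe set. RPLP2 read 56.6, against 200.5 in mutated PNA and 116 in untreated cells, and RPL27A 663, against 754 and 655. Both genes have a bright probe set that names a small nucleolar RNA as well and so falls outside the rule, and these read 30329.5 against 21031 and 22187 for RPLP2 and 36646 against 27833 and 26617 for RPL27A. Without RPLP2 and RPL27A, 50 of 54 genes were above both controls and the lowest difference to the mean of the controls was −0.054, that of RPS25.

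Paralogues and their partners differed in size. RPS27, the partner of RPS27L, read 26855 in anti-MYCN PNA cells, against 23755 and 21917 in mutated PNA and untreated cells. RPL39, at the exit tunnel, read 38544, against 27549 and 27674, and its testis-enriched paralogue RPL39L read 196, against 135 and 152. Among other bright members with small differences, RPL35A read 14097, against 13206.4 and 13206.2, which is 0.094 above the nearer control, and RPS27 and RPL24 were 0.18 and 0.19 above it. The Y-linked paralogue of RPS4X is counted among the members and its values are not given.

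Grouped by place in the ribosome, the measured members had group medians of 0.31 to 0.58. In the large subunit, RPL11, which forms the 5S particle with RPL5 and binds MDM2, read 26657 with anti-MYCN PNA, against 21592 and 21289 with mutated PNA and untreated. RPL3 and RPL8, near the peptidyl transferase centre, were 0.59 and 0.56 above the mean of the controls. The 5 measured proteins of the exit tunnel and its rim, RPL19, RPL23A, RPL31, RPL35 and RPL39, had a median of 0.48, from 0.33 to 0.52. All 5 were above both controls, where 47.9% of all genes were. Their mean signals were 17842 to 33258. Of other genes from 15000 to 20000, 87.5% were above both controls, and of those from 20000, 100% were. RPL31 is uncertain among the 5, since the median over its probe sets was −0.25 at the nearer control. RPL10A, of the L1 stalk that moves with the leaving tRNA, was at 0.38 and RPLP1, of the acidic stalk, at 0.44.

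In the small subunit, RPS3, at the mRNA entry, read 30854 with anti-MYCN PNA, against 23057 and 21860.0 with mutated PNA and untreated, and RPS14, RPS21 and RPS28, at the mRNA exit, were above the mean of the controls by 0.48, 0.43 and 0.33. RPS15, RPS16, RPS18 and RPS23, around the decoding and tRNA sites, had a median of 0.52. RPS23 read 43257, against 31982 and 29588, so that the untreated value was the lowest of the 3. RPS6, the substrate of S6 kinase, read 29188, against 21787 and 22342. Of the 9 listed Diamond-Blackfan anaemia genes 6 were measured, all 6 above both controls. So were 50 of the 56 members, 47.9% of all genes and 80.4% of other genes with a mean signal of at least 10000. The median of the 6 genes, 0.29, in a range of 0.094 to 0.67, was below the 0.41 of all members.

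Large and small subunit genes had like medians. The large-subunit median was 0.39 above the mean of the controls over 34 genes and the small-subunit median 0.41 over 22, so that large minus small was −0.018. Against mutated PNA the medians were 0.38 and 0.40, and against untreated 0.37 and 0.42. Between the controls they were 0.018 and 0.021. Above both controls were 30 of 34 large-subunit and 20 of 22 small-subunit genes, and 2 of each passed 1.5-fold. The spread over genes was an SD of 0.36 for the large and 0.18 for the small subunit, and the large-subunit range runs from −1.43, that of the dim RPLP2 probe set, to 0.76, that of RPL32. Members are not replicates, so the difference between the subunit medians has no test.

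Other genes as bright as the ribosomal protein genes were also higher. Of the 56 genes 49 had a mean signal of at least 10000, and 41 at least 20000. These 41 were all above both controls with a median of 0.43, against 100% above both and a median of 0.58 for the 22 other genes that bright. In those 22 genes 31.8% were at least 1.5-fold above both controls, and in the 41 ribosomal protein genes 4 were. Among the other bright genes were ACTB (beta-actin) at 0.67 above the nearer control, CFL1 (cofilin) at 0.72 and GAPDH at 0.66. EEF1A1, NACA, NPM1 and TPT1, which are on the list of transcripts with the tract or ribosome parts described below, were among them too. The 112 other genes with a mean signal of at least 10000 had 80.4% above both controls, 7.14% at least 1.5-fold above, and a median of 0.20, against 48 of 49 above both and 0.42 for ribosomal protein genes. Between 10000 and 15000 the 4 ribosomal protein genes had a median of 0.10 and 74 other genes 0.13. Between 15000 and 20000 it was 0.35 for 4 ribosomal protein genes and 0.27 for 16 others. Between 6000 and 10000 the 1 ribosomal protein gene, RPL36, was at 0.28 and 147 others at 0.027. Between 1000 and 3000, where RPL26L1 lies, 1551 other genes had a median of −0.031, and between 3000 and 6000, where RPL36AL and RPS27L lie, 419 had −0.020. The medians of other genes did not follow signal throughout, since they were 0.23 in the dimmest of 10 equal classes, from 117 to 177, and −0.040 in class 9, from 1715 to 3215. The bright classes hold few genes, and the bounds were chosen after the signals had been seen. The mean signal includes the anti-MYCN PNA array, so a gene can reach a class through that array alone. CFL1, at 29015 against 14664 with mutated PNA and 17657 untreated, reached 20000 that way. So did RPL3, at 26764 against 17487 and 17961. The shares above both controls and the medians of the bright classes are therefore partly set by the classing.

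**Figure D2:**
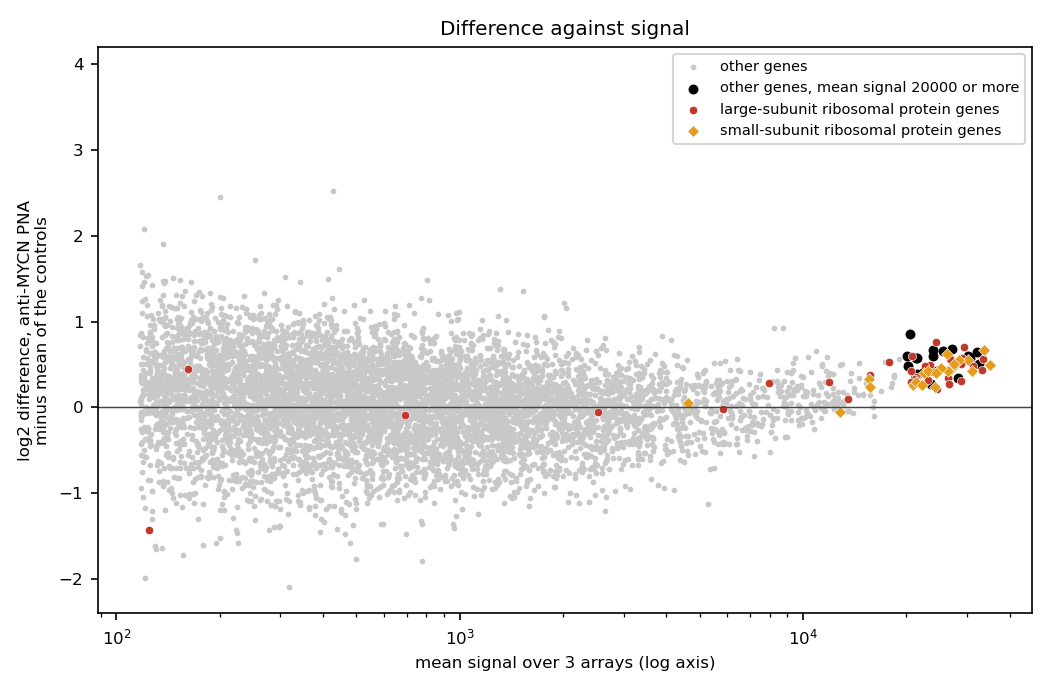
Anti-MYCN PNA minus the controls' mean on the log2 scale (vertical axis), plotted against mean signal over the 3 arrays (log axis) for the 6745 genes compared apart from RPS4Y1. Ribosomal protein genes are coloured by subunit and the 22 other genes with a mean signal of at least 20000 are black. The 41 ribosomal protein genes and the 22 other genes at 20000 or more all lie above 0.

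Ranked within each array, more members stood further from the top with anti-MYCN PNA than closer to it. The rank counts all 22215 gene probe sets from the brightest. The median ribosomal protein gene stood at position 110 on the anti-MYCN PNA array, 96.0 on the mutated PNA array and 96.5 on the untreated array. Closer to the top than on both controls were 17 of 56 genes and further from it 28, where 45.1% of all genes ranked higher and 39.8% lower. Member probe sets held 32 of the 100 brightest places with anti-MYCN PNA, against 36 with mutated PNA and 36 untreated. In the brightest 200 the counts were 59, 57 and 56, and in the brightest 500 they were 66, 67 and 66. The share of the summed signal of all gene probe sets, which follows the scale of bright signals, was 9.81% with anti-MYCN PNA, against 8.28% and 8.12%. The linear share was thus higher with anti-MYCN PNA while the number of top places was within 4 of the controls. Together with probe sets that name a ribosomal protein gene among several, the members held 55 of the 100 brightest places with anti-MYCN PNA, against 61 and 61. A difference shared by all of the brightest genes would leave their order unchanged, and whether there was one was not tested. Members could still change place against the other bright genes.

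Single members differed more in place. RPL32 stood at position 53 with anti-MYCN PNA, against 116 with mutated PNA and 121 untreated, and RPL41 at 15, against 45 and 49. RPS18 stood at 47, against 65 and 81, and RPL3 at 118, against 154 and 151. In the other direction RPS27 stood at 117, against 57 and 79, RPL24 at 116, against 58 and 61, and RPL9 at 84, against 40 and 42. RPS25 stood at 279, against 221 and 232. By subunit, 12 of 34 large-subunit genes ranked higher than on both controls and 16 lower, and 5 of 22 small-subunit genes ranked higher and 12 lower. The small-subunit median position was 99.5, against 73.0 and 80.5, and the large-subunit median 117, against 110 and 119.

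Quantile normalization, which gives all arrays one distribution, takes each value from its rank within the array. Its likeness to the ranks was therefore fixed in advance and is no second check. The median difference to the mean of the controls was −0.034, with 17 genes above both controls and 29 below, where it was 45.2% and 39.8% of all genes. Median scaling lowered the median of all genes by 0.19 and gave a ribosomal median of 0.22, which was 0.35 above that of all genes, against 0.34 with the trimmed mean. After quantile normalization ribosomal minus all genes was −0.069. The direction of the shared difference therefore depended on the scaling. Above both controls under all 3 scalings and by rank were 16 members. The share of all genes that meet all these settings is not given here, and after quantile normalization alone 45.2% were above both. The settings overlap, since the trimmed mean and median scaling differ by only 1 factor per array. Among the 16 were the 4 past 1.5-fold, RPL32, RPL41, RPS18 and RPS19, with differences of 0.29, 0.18, 0.099 and 0.11 to the nearer control after quantile normalization. RPL36 and RPL39L, at 0.20 and 0.26, exceeded RPL41 there, and RPL3 and RPL10A were at 0.14 and 0.13.

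**Figure D3:**
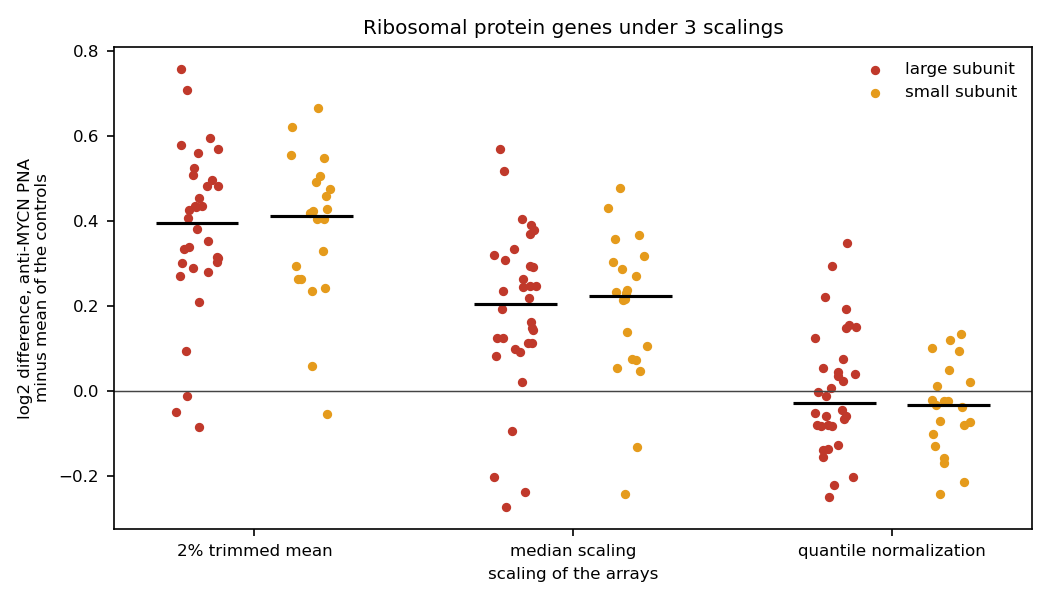
Anti-MYCN PNA minus the controls' mean (log2) for each large-subunit and small-subunit gene under 3 scalings of the arrays, with bars at the medians over all members. RPLP2 and RPS4Y1 are not drawn. The medians of both subunits lie at 0.39 and 0.41 with the trimmed mean, at 0.21 and 0.22 with median scaling and at −0.029 and −0.034 with quantile normalization.

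Probe sets of the same gene gave a second reading from the same RNA on the same arrays. Of the 96 member probe sets 87 passed the signal filter, and 19 genes had at least 2 that did. In 11 of the 19 every probe set was above both controls. How often this held for other genes with several probe sets is not given here, so the count is no trait of the members. In 7 genes at least 1 probe set was below both controls while the brightest was above both: RPL14, RPL22, RPL31, RPL37A, RPL38, RPS10 and RPS21. The bright RPL38 probe set read 27889 with anti-MYCN PNA, against 20134 and 19788 with mutated PNA and untreated. The other RPL38 probe sets read 1598 against 2968 and 2725, and 1726 against 2827 and 2575, and so were lower. For RPL22, 3 bright probe sets were higher, such as 29167 against 20976 and 20379, and a dimmer one read 5959 against 7021 and 6416. RPS21 had 37442 against 28617 and 27105 by one probe set and 3005 against 3420 and 3565 by another. The direction of these 7 genes is uncertain for that reason.

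Of 64 member probe sets with a mean signal of at least 10000, 62 were above both controls and 1 below. Of 156 other probe sets that bright, 126 were above both and 16 below. The anti-MYCN PNA array counts in that mean signal. Of 23 dimmer member probe sets 8 were above both and 11 below, with a median of −0.049, where 47.9% and 37.6% of all genes were. Of 12 genes with at least 2 bright probe sets, all bright ones were above both controls in 11, and RPS9 was the exception. The like share for other genes is not given here. RPS9 read 17452 with anti-MYCN PNA, against 15133 and 14385, by one probe set and 11565, against 13846 and 10075, by the other.

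**Figure D4:**
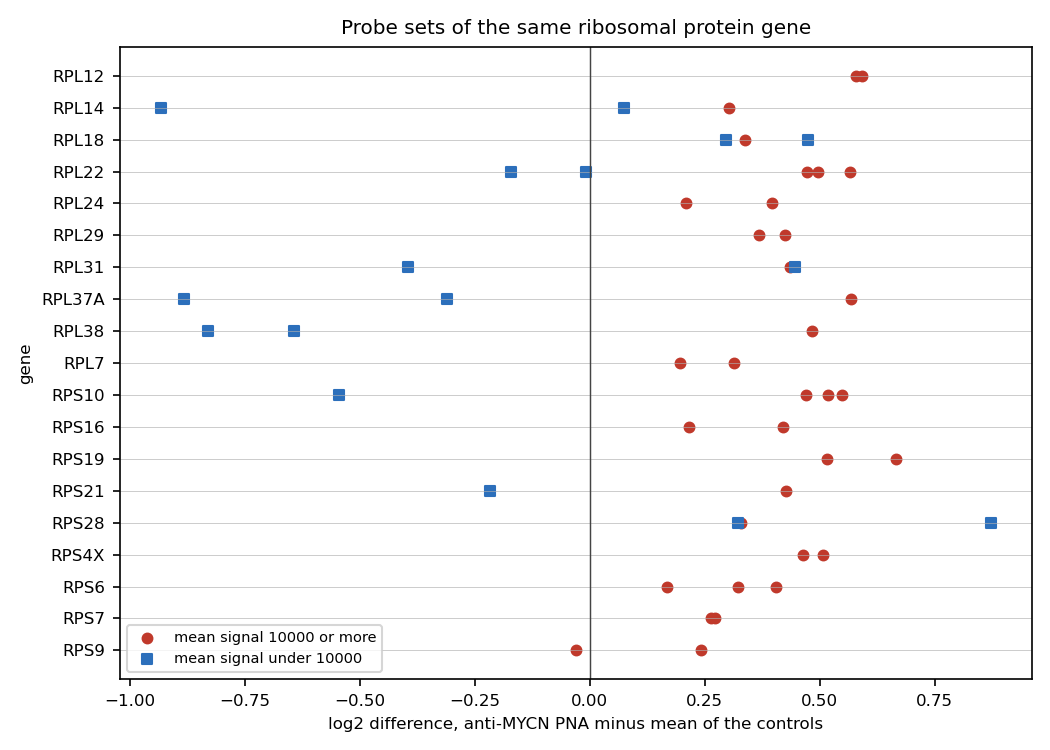
Anti-MYCN PNA minus the controls' mean (log2) for each probe set of the 19 ribosomal protein genes with at least 2 probe sets past the signal filter, coloured by mean signal. Probe sets of at least 10000 lie above 0 apart from 1 for RPS9, and those below both controls in 7 genes have signals under 10000.

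Among bright probe sets the type moved with the size of the difference, and among dimmer member probe sets the order was the reverse. Suffixes _s_at and _x_at mark probe sets whose probes also match other transcripts, and ribosomal protein genes have many processed pseudogenes and transcripts alike in sequence. Among bright member probe sets the median difference was 0.32 for 12 without either suffix, 0.39 for 26 with _s_at and 0.47 for 26 with _x_at. Among member probe sets under 10000 it was −0.0094 for 9 without either suffix, −0.049 for 10 with _s_at and −0.43 for 4 with _x_at. Among 156 other bright probe sets it was 0.14 for 32 without a suffix, 0.15 for 59 with _s_at and 0.43 for 65 with _x_at. Cross-matching can mix the signals of several transcripts, and its part in these differences was not tested. RPL24 read 26920.0 with anti-MYCN PNA, against 23667 and 22908, without a suffix and 29098, against 22117 and 22141, by an _x_at probe set. Of 6 genes with a bright _x_at and another bright probe set, the _x_at difference was the higher in 4, RPL24, RPS6, RPS7 and RPS16. It was the lower in RPS9, at −0.030 against 0.24, and in RPS19, at 0.52 against 0.67.

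Transcripts that share the oligopyrimidine tract or encode ribosome parts under other names gave a share near that of other bright genes. Of a list of 20, 16 were measured, and 14 of them, or 87.5%, were above both controls with a median of 0.27. Their median signal was 12763, and of the other genes with a signal of at least 10000 80.4% were above both with a median of 0.20, against 47.9% of all genes. Those other genes include members of this list, such as TPT1, EEF1A1 and FAU, so the groups overlap. TPT1, the tumour protein translationally controlled through its tract, read 42169 with anti-MYCN PNA, against 26693 and 27239 with mutated PNA and untreated, and was the one past 1.5-fold. FAU, which encodes RPS30 fused to a ubiquitin-like protein, read 15518, against 13481 and 13118, and the elongation factor EEF1A1 33085, against 26347 and 25652. HNRNPA1 was below both, at 3912 against 4574 and 4284. The 48 mitochondrial ribosomal protein genes, which encode a separate ribosome and whose mean signals reach no higher than 6826, had a median of 0.062, with 25 above both controls and 19 below. Under quantile normalization the medians of these lists were 0.015 and 0.085.

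Of the member genes with a promoter and a kept signal, 34 had an oligopyrimidine start and a median difference to the mean of the controls of 0.41, with 31 above both controls. The 15 without one had a median of 0.33, with 12 above both, where 47.9% of all genes were. These included RPL32 and RPL3, with differences of 0.76 and 0.59, and the paralogues RPL26L1, RPL36AL and RPS27L. The grouping rests on annotated starts. The starts used in these cells were not measured, so a gene without a tract at its annotated start may still make transcripts with one. RPL19 and RPS28, the members with CACGTG before a start, were at 0.52 and 0.33, inside the range of the other members.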

How the data were processed

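Per the submitters' processing notes, the deposited signal intensities were made by the authors with MAS5 in GCOS. MAS5 reduces each probe set to 1 number and multiplies each array by a single factor. The 2% trimmed mean was 500.2 on all 3 arrays. Genome build and detection calls are not given in the sources used here. Samples were grouped by title, 1 array per group.

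Probe sets were named from a GEO platform annotation and symbols updated through the RefSeq gene table of GRCh38.p14. Arrays were scaled to one 2% trimmed mean, values below a floor of 23.4, the 25th percentile over the arrays together, were raised to it before the log2 transform. Probe sets of a mean signal of at least the pooled 50th percentile (117) that name 1 gene were kept, the brightest per gene, which gave 6745 genes. A gene is above or below both controls when both differences have that sign, and its smaller difference sets its fold. Named genes are those of structural, disease and paralogue groups, the 8 furthest above both controls, the 8 lowest and those below a control. RPL9, RPL14, RPL24, RPL36, RPL38, RPS9, the signal classes, the other bright genes and the probe sets quoted for single genes were chosen after their values were seen. Alternatives were other scalings, filters, floors, probe set rules, fold thresholds and ranks. Members and lists were chosen with earlier results of these data known. The procedure was tested on simulated data, with a known shift on the members and like noise at all signals. Those data held no array difference that changes with signal, so the test does not bear on the choice of scaling. Python 3.11.15, numpy 2.4.6, pandas 2.3.3 and matplotlib 3.10.9 were used.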

Additional observations from a re-analysis of the deposited data

How the results depend on the processing

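With 1 array per condition no replicate could be left out, and no paired analysis was possible because no group has a second array. With the signals as deposited, no filter, no floor or a pseudocount of 16 no ribosomal median or count crossed to the other side. The median of the ribosomal protein genes reversed under quantile normalization, to −0.046 against mutated PNA, −0.0055 against untreated and −0.034 against the mean of the controls, and by rank within each array, to −0.038, −0.0045 and −0.029 percentile points in the same order. Genes above and below both controls then numbered 17 and 29 under quantile normalization, with 0 above by 1.5-fold, and 17 and 28 by rank, which has no fold. Both settings use only the order within each array, so they are not separate checks. Median scaling gave medians of 0.21, 0.19 and 0.22, with 8 genes below both and 0 above by 1.5-fold. Without _x_at and _s_at probe sets 20 genes were left, which had a median of 0.26 against mutated PNA, 15 above both controls, 1 above by 1.5-fold and 2 below by 1.5-fold. The median over probe sets put 6 genes below both and 2 below by 1.5-fold, and every probe set taken singly 12 and 4. A filter at the 75th percentile left 0 below by 1.5-fold. Thresholds of 2-fold and of 25% gave 0 and 33 above both. Leaving out RPLP2 and RPL27A, chosen after seeing the data, gave 50 above both. Of single genes, 27 of 56 had the opposite sign under quantile normalization and 26 by rank. Large minus small lay between −0.059 and 0.020 over the alternatives, with no settled sign. Mutated PNA minus untreated was −0.0017 under median scaling. Weak signals limit the dim probe sets.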

Other observations

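A further 57 probe sets name a ribosomal protein gene together with another gene, mostly a small nucleolar RNA encoded in its intron. Of the 50 past the signal filter 48 were above both controls, 1 was below both and the median log2 difference to the mean of the controls was 0.43. Of 156 other bright probe sets 126 were above both controls, and of all genes 47.9% were. They come from the same RNA and arrays as the members. Together they measure 16 genes that no member probe set names. RPS2, at the mRNA entry, read 36272 with anti-MYCN PNA, against 24384 and 22772 with mutated PNA and untreated, and RPL10, whose loading completes the large subunit, read 23223 against 15152 and 14692. RPL5, the partner of RPL11 in the 5S particle, read 23699 against 21302 and 20527. RPL4, of the tunnel wall, read 16369 against 15952 and 15224 by one probe set and 25928 against 19355 and 18634 by another. RPS26 read 11319.5 against 10953 and 11226, the smallest of the differences named here. The brightest probe set of all genes, for RPL23A, read 50332 with anti-MYCN PNA, against 32467 and 33282.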
